A study of Mus musculus with 15 samples.

Results

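The immediate-early genes are the first to be transcribed when a cell is stimulated, and they are also the genes that respond when a solid tissue is broken up into single cells. The 39 genes described here were listed by name and known role, with earlier results of these data known: 4 FOS and 3 JUN proteins, 3 further AP-1-like factors, 4 EGR zinc fingers, 3 NR4A receptors, 4 other transcription factors, 3 IER proteins, 3 MAP kinase phosphatases, 6 genes of RNA decay and growth arrest, 4 genes of the cytoskeleton and of kinase signalling, and the heat shock genes Hspa1a and Hspa1b. A named probe was found for 38 of the 39, out of 21173 gene symbols on the array. Hspa1b had no probe under its own name, and because it is nearly identical to Hspa1a the Hspa1a probe may read both. All 38 passed the filter on dim probes in both sets of arrays, and 36 were well above background on all 15 arrays. The exceptions were Fosl1, which was well above background on 1 of 3 CD157-CD200- arrays, and Egr4, which was so on 2 of 3 EC-MP arrays.

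The study sorted endothelial cells from mouse liver in 2 ways and measured their RNA with one-colour Agilent microarrays, 15 in all and 3 per population. In the first sort, EC-SP cells were set against EC-MP cells of mice aged 8 weeks. SP and MP are read here as side and main population, the side population being cells that pump out a DNA-binding dye. In the second sort, 3 subsets were separated by the surface proteins CD157, an ectoenzyme that Bst1 encodes, and CD200, an immunoglobulin-family membrane protein: CD157+CD200+, CD157-CD200+ and CD157-CD200- cells. All 5 populations were labelled as liver endothelial cells, and strain, genotype, treatment, pooling of animals and the age of the mice behind the 3 subsets were not given in the sources used here. Whether the 3 replicates of a population are different mice is not stated, and the p-values therefore speak only of the scatter among these particular samples, which may be technical. No sample of undissociated liver was analysed here, and any part of tissue dissociation in the values below was not tested.

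Immediate-early genes are switched on within minutes by factors already present in the cell, such as SRF with its ETS partners and CREB, after signals through the MAP kinases, calcium or cyclic AMP. Many of their products are transcription factors, among them FOS and JUN, which pair to form AP-1, and others shut the response off again, such as the DUSP phosphatases that act on MAP kinases and ZFP36, which marks AU-rich mRNAs for decay. In endothelium they are known to answer shear stress, growth factors, inflammatory cytokines and the loss of contact with the vessel wall.

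Between 57.3 and 69.4% of spots were well above background on each array, and no spot was saturated. The sort was visible in its own genes: Cd200 was not well above background on any CD157-CD200- array while CD157+CD200+ cells exceeded them at least 320.0-fold (limma, adjusted p = 7.79e-09), a lower bound set by the dimmest probe well above background on each array. The endothelial genes Pecam1 and Cdh5 were well above background on all 15 arrays. All 10 markers of liver sinusoids were lower in EC-SP than in EC-MP and in CD157+CD200+ than in CD157-CD200- cells, and 6 and 7 of 10 markers of large vessels were higher and 1 lower. Of the other cell types looked for, platelet and erythroid markers summed to 1.35 to 1.7 times the array's 75th percentile in EC-SP and 2.92 to 5.04 in EC-MP. They summed to 1.3 to 1.92, 1.33 to 1.91 and 12.0 to 22.1 in CD157+CD200+, CD157-CD200+ and CD157-CD200- cells, with 2 of 4 tested lower in EC-SP and 3 of 5 lower in CD157+CD200+ than in CD157-CD200- cells. Stellate cell markers summed to 2.25 to 3.83 in EC-SP and 2.36 to 3.51 in EC-MP, and to 6.47 to 7.96, 6.34 to 9.14 and 4.56 to 4.86 in the same 3 subsets. Neutrophil and monocyte markers summed to 287 to 339 in EC-SP and 276 to 351 in EC-MP, and to 177 to 217 over all subset arrays. In each population 3 to 5 of the 8 with a probe were not well above background on any array, always including Mpo and Retnlg. The sum thus rested on the remaining few. Endothelial markers summed to 202 to 281 in EC-SP, 228 to 276 in EC-MP and 253 to 402 over all subset arrays. Of the bile duct markers, 8 of 10 were higher in EC-SP, with a summed signal of 18.5 to 22.1 times the array's 75th percentile in EC-SP and of 3.72 to 5.16 in EC-MP. None of those 10 was called between the subsets, where the sum was 8.78 to 12.3 in CD157+CD200+, 3.83 to 6.15 in CD157-CD200+ and 5.25 to 8.34 in CD157-CD200- cells. Of the Kupffer cell markers, 3 of 8 tested were lower in EC-SP and 6 of 10 in CD157+CD200+ than in CD157-CD200- cells; they summed to 27.0 to 31.2 in EC-SP and 26.0 to 35.8 in EC-MP, and to 28.0 to 31.4, 27.2 to 37.4 and 40.7 to 54.8 in CD157+CD200+, CD157-CD200+ and CD157-CD200- cells, with Timd4 not well above background on any array. Hepatocyte markers summed to 10.3 to 11.7 in EC-SP and 7.23 to 8.03 in EC-MP, and to 12.1 to 15.1, 10.6 to 13.8 and 24.8 to 38.9 in CD157+CD200+, CD157-CD200+ and CD157-CD200- cells. Lymphocyte markers stood at 3.95 to 6.19 on all arrays, with 6 of 10 never well above background. The part of these cells in the results below was not tested.

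All values are log2 signals minus the array's log2 75th percentile, and a difference is called where limma's Benjamini-Hochberg adjusted p over all features of that comparison is under 0.05. Immediate-early genes were higher in EC-SP than in EC-MP cells for 20 of the 38 genes, lower for none and not called for 18. Across all 23969 features 16.6% were called, 9.11% as higher and 7.44% as lower. The median difference of the 38 genes was 1.09, beside -0.01 over all features. The genes called higher were Fosl1, Fosl2, Atf3, Maff, Mafk, Egr2, Egr3, Nr4a1, Nr4a2, Nr4a3, Myc, Klf6, Klf10, Csrnp1, Dusp6, Zfp36l1, Gadd45a, Gadd45g, Arc and Trib1. Fos, all JUN genes, Egr1 and all IER genes were among those not called. The EC-SP and EC-MP arrays did not overlap in 26 genes that were higher in EC-SP and in 1 that was lower, beside 19.0 and 16.0% of all features. In bulk samples such as these, fewer cells expressing a gene and less RNA of it per cell cannot be told apart.

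Between CD157+CD200+ and CD157-CD200- cells 20 of the 38 genes were higher in CD157+CD200+, Sgk1 was lower and 17 were not called. Here 15.2% of 23699 features were called, 8.09% as higher and 7.11% as lower, and the median difference was 0.87 for the 38 genes and 0.01 for all features. The arrays did not overlap in 24 genes that were higher in CD157+CD200+ and 3 that were lower, beside 15.5 and 13.8% of all features. Both sorts shared 16 genes called higher, which is 80.0% of either list, and the 2 comparisons have no array in common. The genes of the second sort's surface proteins were themselves higher in EC-SP, Bst1 by 4.34 ± 0.24 and Cd200 by 3.39 ± 0.26 (adjusted p = 2.68e-05 and 9.04e-05). How far the 2 sorts took the same cells was not tested. Over all 22608 features tested in both, 3.81% were called higher in both sorts, which is 39.5% of the features called higher in EC-SP and 45.0% of those called higher in CD157+CD200+ cells. Of the rest, Arc, Dusp6, Gadd45a and Nr4a3 were called in EC-SP and not in CD157+CD200+ cells, and Btg2, Fosb, Ier3 and Zfp36 the other way round. Another 13 genes were called in none of the 4 pairwise comparisons: Fos, Jun, Junb, Jund, Egr1, Egr4, Ier2, Ier5, Dusp1, Dusp5, Gadd45b, Rhob and Hspa1a. With the replicate number as a block 10 of these 13 were called in at least 1 comparison, and Fos, Egr1 and Dusp1 were the 3 that were not. The block raised the share of all features called as well, to 3.06% between CD157+CD200+ and CD157-CD200+ cells and to 22.3% between CD157-CD200+ and CD157-CD200- cells (11.4% higher and 10.8% lower). Every called difference had the same sign on each of the 3 slides, in 20 of 20 and 21 of 21 genes. The calls were made on these same arrays, so this agreement follows largely from the call and is no separate support. With that block, which the pairing of samples on slides allows, 24 of the 38 were called higher in EC-SP (21.9% of all features in either direction) and, against CD157-CD200- cells, 27 were higher and 3 lower in CD157+CD200+ (29.3%). The second comparison leaned on single arrays: 9 of the 38 were called without CD157-CD200- replicate 1, 12 without CD157+CD200+ replicate 2 and 13 without CD157+CD200+ replicate 1. Fewer features were called in these fits as well, 2749, 2819 and 2664 in the same order, against 3601 with all arrays.

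**Figure D1:**
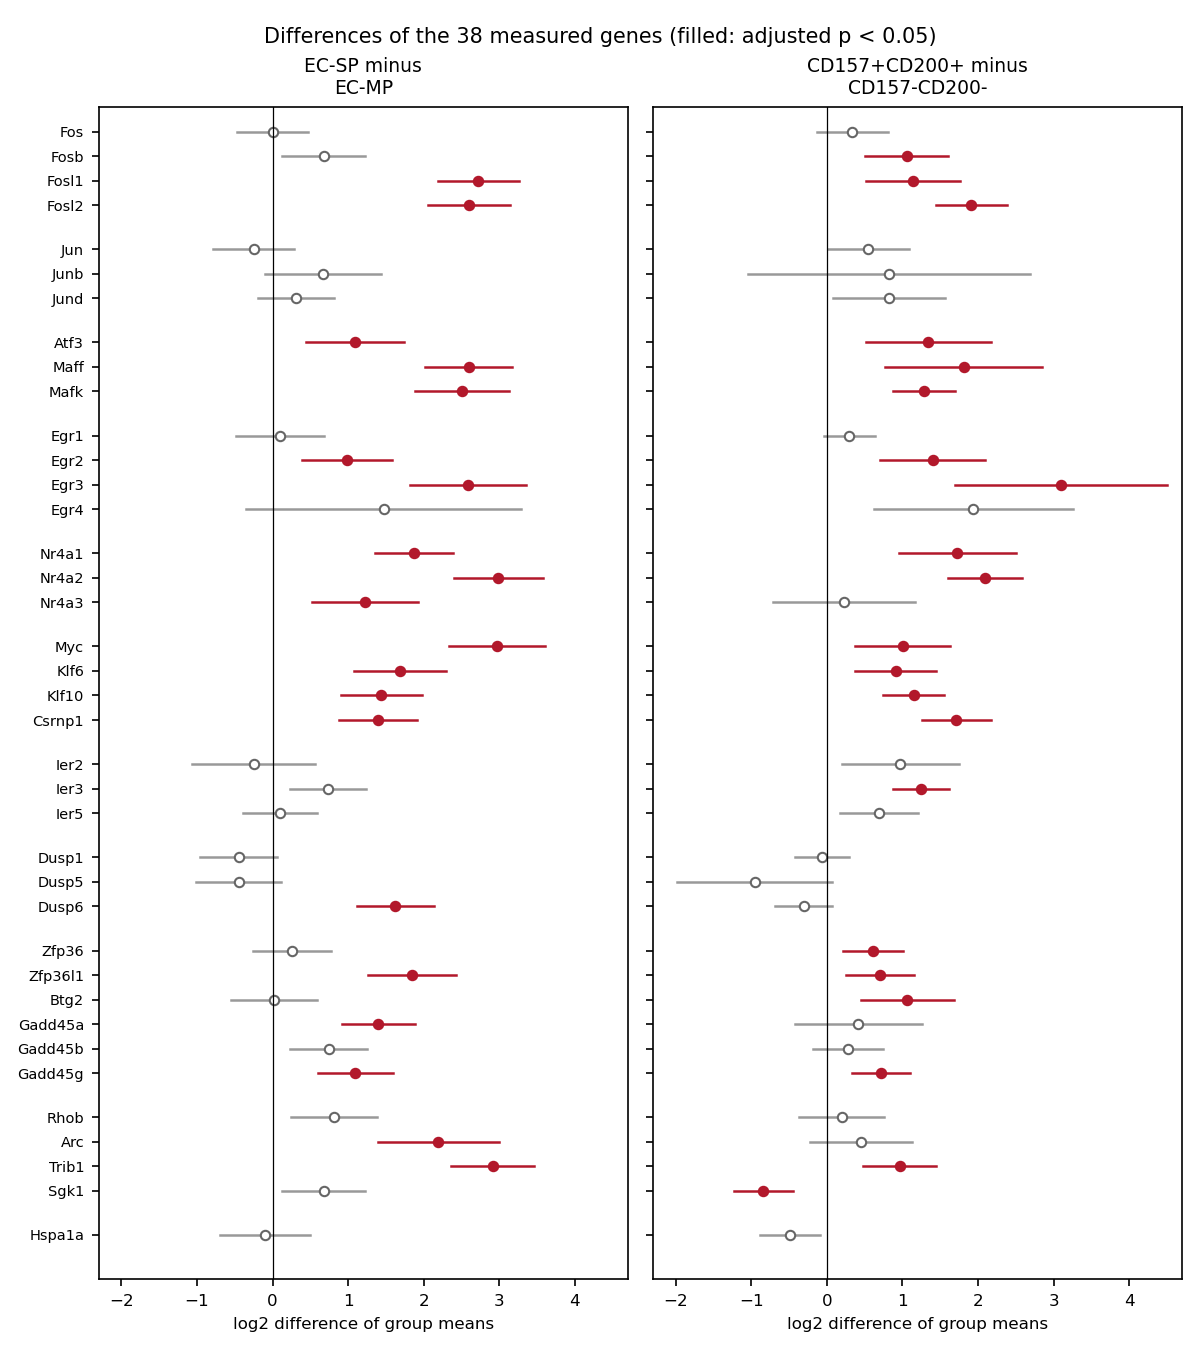
The log2 difference of group means (x axis) is drawn for each of the 38 measured genes (rows, grouped by role), for EC-SP minus EC-MP on the left and CD157+CD200+ minus CD157-CD200- on the right; bars are 95% confidence intervals and filled points have an adjusted p under 0.05. The intervals of Fos and Egr1 include 0 in both panels, while Nr4a2, Fosl2, Maff and Egr3 stand far to the right in both panels.

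The promoters of the genes are shown for 2 that were called in both sorts, Nr4a1 and Nr4a2, and for 2 that were called in no comparison with or without the block, Fos and Dusp1, because all 4 carry the same short sequence. Each line gives the 250 bases before the RefSeq transcript start (build GRCm38.p6), written 5′ to 3′ along the gene's strand, with TGACG or its reverse complement CGTCA, the half-site of the cyclic AMP response element (CRE) that CREB and ATF proteins bind, in capitals.
Nr4a1, chr15:101266596-101266845, plus strand: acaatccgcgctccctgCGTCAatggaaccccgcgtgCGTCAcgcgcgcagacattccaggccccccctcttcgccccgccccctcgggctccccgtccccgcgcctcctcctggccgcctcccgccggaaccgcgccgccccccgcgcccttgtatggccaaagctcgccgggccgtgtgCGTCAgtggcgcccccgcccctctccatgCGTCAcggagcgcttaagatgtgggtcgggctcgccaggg
Nr4a2, chr2:57124004-57124253, minus strand: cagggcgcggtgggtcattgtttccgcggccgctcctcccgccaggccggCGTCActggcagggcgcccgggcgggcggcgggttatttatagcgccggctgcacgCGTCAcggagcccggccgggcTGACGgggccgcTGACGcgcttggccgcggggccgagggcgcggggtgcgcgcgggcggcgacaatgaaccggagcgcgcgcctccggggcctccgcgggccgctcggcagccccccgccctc
Fos, chr12:85473640-85473889, plus strand: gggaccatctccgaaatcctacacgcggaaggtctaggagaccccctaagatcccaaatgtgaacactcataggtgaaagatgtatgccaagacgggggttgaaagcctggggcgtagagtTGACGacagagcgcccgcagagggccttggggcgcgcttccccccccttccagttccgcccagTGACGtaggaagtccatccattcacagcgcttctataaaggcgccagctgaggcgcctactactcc
Dusp1, chr17:26508473-26508722, minus strand: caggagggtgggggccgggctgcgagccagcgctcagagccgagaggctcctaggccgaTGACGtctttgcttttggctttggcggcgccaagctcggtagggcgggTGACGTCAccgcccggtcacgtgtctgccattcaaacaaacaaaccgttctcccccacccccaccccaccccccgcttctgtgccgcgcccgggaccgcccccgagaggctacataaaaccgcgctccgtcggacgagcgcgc
Counted from its first base, the half-site lies 233, 213, 69 and 40 bases before the start in Nr4a1, 200, 144, 123 and 111 bases before it in Nr4a2, and 129 and 66 bases before it in Fos. In Dusp1 it begins 191, 143 and 140 bases before the start, and the last pair overlaps within 1 full CRE, TGACGTCA.

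Motifs were searched in windows of 250 bases before to 50 bases after the start for 31 of the 39 genes. Promoters of Arc, Egr1, Egr3, Fosl1, Ier2, Klf10, Myc and Trib1 were not analysed here. A gene counted as holding a motif if any of its windows did. The 31 genes had 45 windows and all 27025 genes had 32851. On either strand TGACG was present in 16 of the 31 genes, or 51.6%, against 23.0% of all 27025 genes with a window. It was present in 7 of 11 genes called higher in both sorts and in 5 of 11 called in no comparison. The full CRE, TGACGTCA, which contains the half-site, was found in 3 of 31 (Btg2, Dusp1 and Maff; 9.68%, against 2.03%). The EGR site GCGNGGGCG was found in 9 of 31 (29.0%, against 6.27%), the AP-1 site TGANTCA in 2 (6.45%, against 8.97%), the heat shock pair GAANNTTC in 5 (16.1%, against 9.04%), and the CArG box that SRF binds in 3 (9.68%, against 1.81%). The windows of these genes were richer in G and C, with a median of 63.0% against 52.8% over all genes, and the EGR site is made of those bases. The part of base content and of the number of windows in any of these shares was not tested. By RefSeq's coordinates the 38 genes were short, with a median span of 4.66 kb and 28 of 38 under 10 kb, against 20.1 kb and 30.4% for all 14217 named genes tested in EC-SP and EC-MP.

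Among the FOS proteins, the partners that give AP-1 its DNA-binding dimers with JUN, Fos itself was called in no comparison and the FOS-related antigens Fosl1 and Fosl2 were higher in both sorts. Fos had values of 6.33, 6.31 and 6.43 on the EC-SP arrays, against 6.3, 6.53 and 6.24 on the EC-MP arrays. The 3 subsets gave 7.36, 7.7 and 7.19 in CD157+CD200+, 7.15, 7.54 and 7.0 in CD157-CD200+ and 6.94, 7.23 and 7.05 in CD157-CD200-. The groups overlapped in all 4 comparisons: the difference was 0.00 between EC-SP and EC-MP (95% interval -0.47 to 0.47, adjusted p = 0.999) and 0.34 between CD157+CD200+ and CD157-CD200- (95% interval -0.13 to 0.81, adjusted p = 0.366). No array was under 6.24 for Fos. Fosl2 had values of 6.99, 7.0 and 7.42 on the EC-SP arrays, against 4.49, 4.33 and 4.81 on the EC-MP arrays, a difference of 2.6 ± 0.24 (SE; adjusted p = 0.000219), or 6.04-fold. In the subsets Fosl2 stood at 7.63, 7.61 and 7.64 in CD157+CD200+, 6.03, 6.19 and 6.36 in CD157-CD200+ and 5.58, 5.41 and 6.13 in CD157-CD200-. Its CD157+CD200+ arrays lay close together and above all other subset arrays, 1.91 ± 0.21 over CD157-CD200- (adjusted p = 0.000191) and 1.43 ± 0.21 over CD157-CD200+ (adjusted p = 0.0122; up to 0.0708 with 1 array left out). A second Fosl2 probe gave 2.10, 2.05 and 1.51 for the same 3 differences. Fosl1 had values of -0.30, -0.03 and 0.13 on the EC-SP arrays, against -2.71, -2.59 and -3.07 on the EC-MP arrays, so that the difference was 2.72 ± 0.24 (adjusted p = 0.000173). Its subset values of -2.49, -2.28 and -3.0 in CD157+CD200+, -3.02, -2.7 and -2.94 in CD157-CD200+ and -3.94, -4.08 and -3.18 in CD157-CD200- did not overlap between CD157+CD200+ and CD157-CD200-, but the CD157+CD200+ excess of 1.14 ± 0.28 (adjusted p = 0.02) ranged from 0.19 to 1.80 over the slides and had an adjusted p of up to 0.3 in the alternatives tried. Fosb, which like Fos carries a transactivation domain, was higher in CD157+CD200+ than in CD157-CD200- cells by 1.06 ± 0.24 (adjusted p = 0.0157; up to 0.064 with 1 array left out), and its EC-SP difference of 0.68 was not called (adjusted p = 0.0941).

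None of the 3 JUN genes, which form AP-1 with FOS proteins or with each other, was called in any comparison with all arrays and no replicate block. With 1 array left out, Junb was called higher in EC-SP (without EC-MP replicate 3, adjusted p = 0.042). Jund was called between CD157+CD200+ and CD157-CD200- cells without CD157+CD200+ replicate 3. Jun had values of 5.34, 4.86 and 4.87 on the EC-SP arrays, against 5.42, 5.05 and 5.36 on the EC-MP arrays, and the subsets gave 5.58, 5.99 and 5.85 in CD157+CD200+, 5.27, 5.77 and 5.69 in CD157-CD200+ and 4.85, 5.34 and 5.59 in CD157-CD200-. The Jun groups overlapped in both sorts, with differences of -0.25 (95% interval -0.79 to 0.28; adjusted p = 0.542) and 0.55 (95% interval 0.01 to 1.08; adjusted p = 0.177), and the second was called with the replicate block (adjusted p = 0.0165). Junb varied more with the slide, which is also the replicate number, than with the subset. Its values were 3.68, 4.52 and 1.85 in CD157+CD200+, 3.01, 4.22 and 1.53 in CD157-CD200+ and 2.64, 3.51 and 1.44 in CD157-CD200-. The third replicate of every subset thus lay below the others. Within each slide Junb was higher in CD157+CD200+ than in CD157-CD200- by 0.41 to 1.04, which was called with the block (adjusted p = 0.0106) and not without it (adjusted p = 0.629). Jund behaved alike, at 0.82 with adjusted p = 0.144 and, with the block, 0.00546.

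The 3 other AP-1-like factors, Atf3 and the small MAF proteins Maff and Mafk, were called higher in both sorts. ATF3 is a stress-induced repressor and activator, and small MAF proteins lack a transactivation domain of their own and dimerise with NRF2 and BACH factors. Maff had values of 1.38, 1.65 and 1.85 on the EC-SP arrays, against -0.95, -1.31 and -0.65 on the EC-MP arrays, 2.6 ± 0.25 higher (adjusted p = 0.000292). Its subset values were 0.08, 0.40 and 0.87 in CD157+CD200+, -1.08, -0.71 and -0.23 in CD157-CD200+ and -2.18, -1.68 and -0.23 in CD157-CD200-, 1.81 ± 0.46 higher in CD157+CD200+ than in CD157-CD200- (adjusted p = 0.0265; up to 0.088 over the alternatives). On each slide CD157+CD200+ was the highest subset, and the CD157-CD200- arrays spread widest. Mafk had values of 1.83, 1.98 and 2.57 on the EC-SP arrays, against -0.61, -0.47 and -0.05 on the EC-MP arrays, a difference of 2.51 ± 0.27 (adjusted p = 0.000527). In the other sort Mafk had 0.98, 1.14 and 1.12 in CD157+CD200+, -0.08, 0.12 and 0.18 in CD157-CD200+ and -0.30, -0.39 and 0.07 in CD157-CD200-, with CD157+CD200+ above CD157-CD200- by 1.29 ± 0.18 (adjusted p = 0.0009) and above CD157-CD200+ by 1.01 ± 0.18 (adjusted p = 0.0315; up to 0.167 over the alternatives). No CD157+CD200+ array overlapped with another subset for Mafk. Atf3 had values of 5.85, 5.36 and 5.79 on the EC-SP arrays, against 4.6, 4.1 and 5.03 on the EC-MP arrays, and in the subsets 5.5, 6.45 and 5.42 in CD157+CD200+, 4.76, 5.73 and 4.78 in CD157-CD200+ and 3.98, 4.84 and 4.51 in CD157-CD200-. For Atf3 the differences were 1.09 ± 0.29 (adjusted p = 0.0325) and 1.34 ± 0.37 (adjusted p = 0.0367), and over the alternatives its adjusted p reached 0.101 and 0.128.

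Of the EGR zinc fingers, which bind a shared GC-rich site, Egr2 and Egr3 rose in both sorts and Egr1 was called in no comparison. Egr1 had values of 8.71, 8.48 and 8.96 on the EC-SP arrays, against 8.5, 8.34 and 9.01 on the EC-MP arrays; the subset values were 9.11, 9.12 and 9.12 in CD157+CD200+, 8.91, 8.89 and 8.78 in CD157-CD200+ and 8.87, 8.7 and 8.89 in CD157-CD200-. Egr1 differed by 0.10 in the first sort (95% interval -0.48 to 0.68; adjusted p = 0.852). In the second the difference was 0.30 (95% interval -0.04 to 0.64; adjusted p = 0.258), although the CD157+CD200+ arrays did lie just above both other subsets. Egr3 had values of 3.4, 3.11 and 2.23 on the EC-SP arrays, against 0.56, -0.10 and 0.50 on the EC-MP arrays, 2.59 ± 0.34 higher (adjusted p = 0.0012). In the subsets Egr3 had the largest CD157+CD200+ excess of the 38 genes, with values of 2.57, 3.64 and 1.89 in CD157+CD200+, 1.12, 2.46 and 0.99 in CD157-CD200+ and -1.32, 0.81 and -0.68 in CD157-CD200- and a difference of 3.1 ± 0.63 (adjusted p = 0.008), or 8.57-fold. Its order CD157+CD200+, CD157-CD200+, CD157-CD200- held on each slide, while slide 2 was high in all 3 subsets. Egr2 had values of 2.54, 2.38 and 3.01 on the EC-SP arrays, against 1.35, 1.63 and 1.99 on the EC-MP arrays, and the subsets had 3.11, 4.1 and 3.57 in CD157+CD200+, 2.56, 3.23 and 3.03 in CD157-CD200+ and 1.78, 2.23 and 2.57 in CD157-CD200-. The Egr2 differences were 0.99 ± 0.27 (adjusted p = 0.0349) and 1.4 ± 0.31 (adjusted p = 0.0125), the first with an adjusted p of up to 0.119 in the alternatives. Egr4 was dim and scattered, from -5.49 to 1.25 over all arrays, with differences of 1.47 and 1.94 with adjusted p = 0.263 and 0.0546, 0.0432 and 0.0442 with the replicate block, and as low as 0.0133 for the second over the alternatives.

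The NR4A genes encode orphan nuclear receptors that act without a known ligand. Among them Nr4a2 had the largest EC-SP excess of the 38 genes. Nr4a2 had values of 3.43, 3.51 and 4.1 on the EC-SP arrays, against 0.42, 0.91 and 0.75 on the EC-MP arrays, a difference of 2.99 ± 0.26 (adjusted p = 0.000178), or 7.94-fold. The subsets were graded without overlap, at 2.77, 2.92 and 3.08 in CD157+CD200+, 1.82, 1.86 and 2.15 in CD157-CD200+ and 0.59, 0.64 and 1.26 in CD157-CD200-. CD157+CD200+ exceeded CD157-CD200- by 2.09 ± 0.22 (adjusted p = 0.000134) and CD157-CD200+ exceeded CD157-CD200- by 1.12 ± 0.22 (adjusted p = 0.00831). The step between CD157+CD200+ and CD157-CD200+ was 0.98 ± 0.22, with adjusted p = 0.0885 and, with the block, 0.0121, and it was also called with normexp and without CD157-CD200- replicate 3. A second probe for Nr4a2 gave 2.63, 1.78 and 0.93 for the first 3 of these differences. Nr4a1 had values of 4.89, 4.88 and 5.34 on the EC-SP arrays, against 3.14, 3.07 and 3.28 on the EC-MP arrays, 1.87 ± 0.23 higher (adjusted p = 0.000825), and the subset values were 5.14, 6.0 and 5.39 in CD157+CD200+, 3.95, 4.92 and 4.44 in CD157-CD200+ and 3.19, 4.07 and 4.1 in CD157-CD200-. Nr4a1 was thus 1.73 ± 0.34 higher in CD157+CD200+ than in CD157-CD200- (adjusted p = 0.00736), and every CD157+CD200+ array was above every other subset array. Nr4a3 was higher in EC-SP by 1.22 ± 0.31 (adjusted p = 0.028), a call lost without EC-SP replicate 2 or 3 or EC-MP replicate 2 or 3 (adjusted p over all alternatives up to 0.0965), and differed by 0.23 in the other sort (adjusted p = 0.825).

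**Figure D2:**
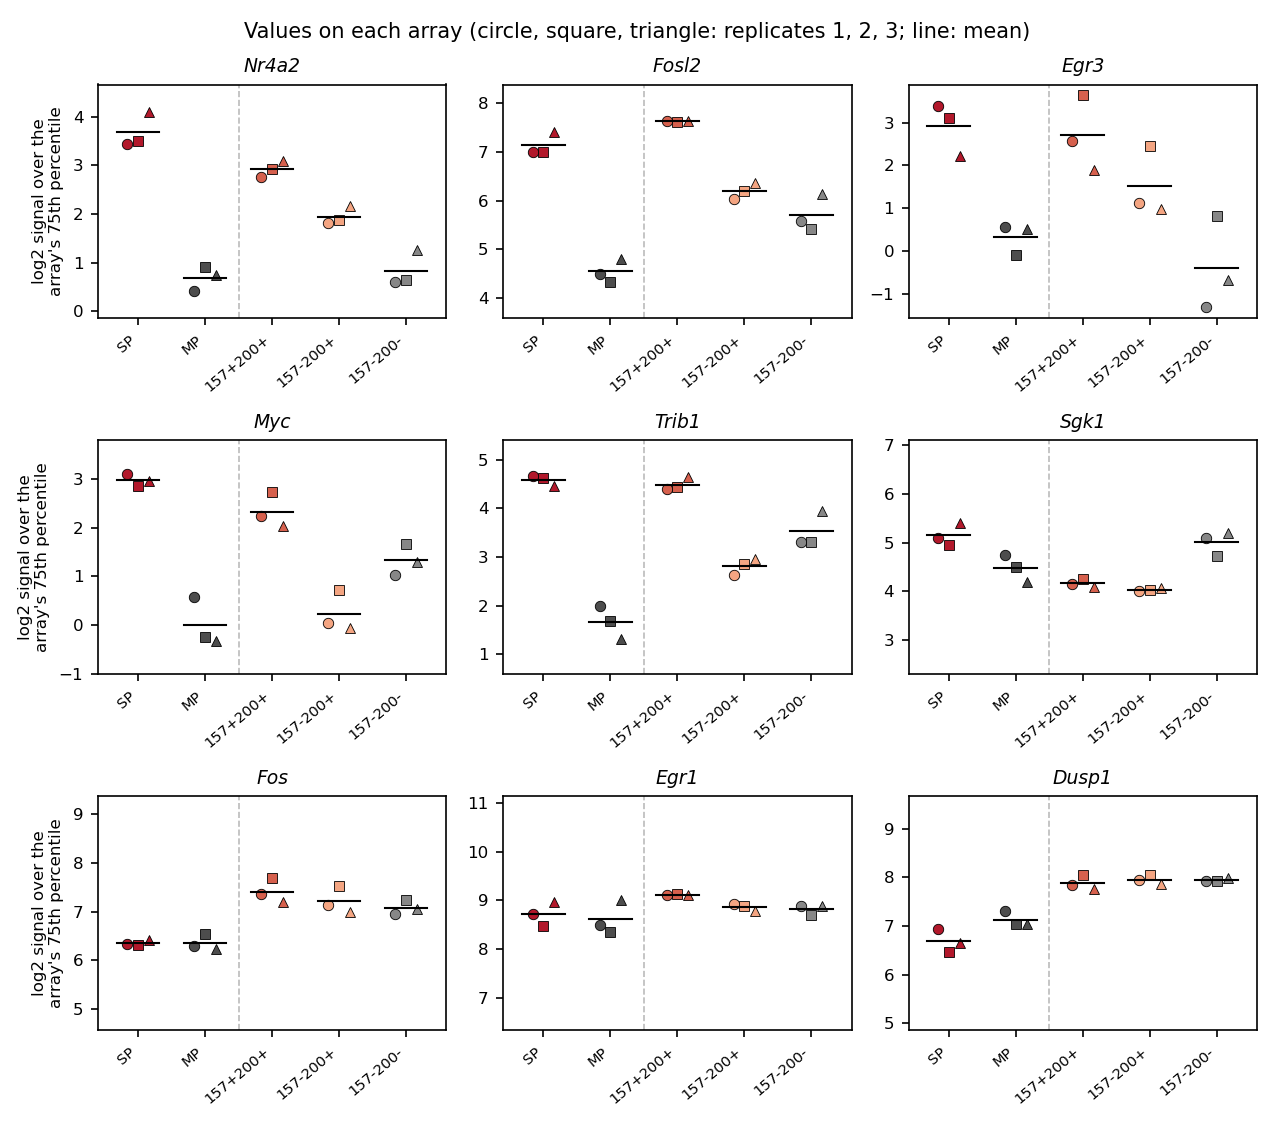
Values on each of the 15 arrays (y axis, log2 signal over the array's 75th percentile) are shown for 9 genes in EC-SP, EC-MP, CD157+CD200+, CD157-CD200+ and CD157-CD200- cells (x axis; the dashed line parts the 2 sorts); circles, squares and triangles are replicates 1, 2 and 3 and lines are means. Nr4a2 falls in steps across the subsets, among the subsets Myc and Trib1 are lowest in CD157-CD200+, Sgk1 runs opposite ways in the 2 sorts, and the groups of Fos, Egr1 and Dusp1 lie close together within each sort.

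Myc, Klf6, Klf10 and Csrnp1, all transcription factors, were higher in both sorts. Myc had values of 3.12, 2.86 and 2.95 on the EC-SP arrays, against 0.58, -0.24 and -0.33 on the EC-MP arrays, a difference of 2.97 ± 0.28 (adjusted p = 0.000254), or 7.86-fold. MYC drives growth and ribosome synthesis. The subsets were not graded for Myc: values were 2.24, 2.74 and 2.03 in CD157+CD200+, 0.04, 0.73 and -0.05 in CD157-CD200+ and 1.03, 1.67 and 1.3 in CD157-CD200-, with the CD157-CD200+ arrays all below the CD157-CD200- arrays. Accordingly Myc was higher in CD157+CD200+ than in CD157-CD200+ by 2.1 ± 0.28 (adjusted p = 0.00833) and than in CD157-CD200- by 1.0 ± 0.28 (adjusted p = 0.0404), and it was lower in CD157-CD200+ than in CD157-CD200-, with a difference of -1.09 ± 0.28 (adjusted p = 0.0327). The call between CD157+CD200+ and CD157-CD200- and that between CD157-CD200+ and CD157-CD200- were each lost without some single arrays, with adjusted p-values up to 0.14 and 0.122. Csrnp1, a nuclear protein induced through AXIN1, followed the graded order. Csrnp1 had values of 3.85, 3.61 and 3.91 on the EC-SP arrays, against 2.48, 2.13 and 2.56 on the EC-MP arrays, and its subset values were 4.55, 5.04 and 4.8 in CD157+CD200+, 3.62, 4.1 and 3.76 in CD157-CD200+ and 2.96, 3.02 and 3.28 in CD157-CD200-, with no overlap between any 2 subsets. It was higher in EC-SP by 1.4 ± 0.23 (adjusted p = 0.00353) and in CD157+CD200+ over CD157-CD200- by 1.71 ± 0.20 (adjusted p = 0.000313), and the step between CD157-CD200+ and CD157-CD200- was 0.74 ± 0.20 (adjusted p = 0.045; up to 0.164 with 1 array left out or another setting). Klf10, a TGF-beta-inducible zinc finger repressor, had 5.23, 5.01 and 4.77 on the EC-SP arrays and 3.83, 3.36 and 3.52 on the EC-MP arrays. The subsets gave 4.58, 4.44 and 4.39 in CD157+CD200+, 4.2, 4.11 and 4.14 in CD157-CD200+ and 3.59, 3.05 and 3.32 in CD157-CD200- for Klf10. Most of its rise lay between the CD200-negative and CD200-positive cells: CD157-CD200+ was 0.83 ± 0.18 above CD157-CD200- (adjusted p = 0.0143; 0.0608 without CD157-CD200+ replicate 1) and CD157+CD200+ 0.32 above CD157-CD200+ (adjusted p = 0.77). Klf6, a Krüppel-like factor of injured endothelium, was higher in EC-SP by 1.69 ± 0.27 and in CD157+CD200+ by 0.91 ± 0.24 (adjusted p = 0.00327 and 0.0287, the second up to 0.106 over the alternatives).

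Ier3, whose product limits apoptosis, was the only IER gene called between subsets with all arrays and no replicate block. Its values were 5.66, 5.26 and 5.51 in EC-SP, against 4.59, 4.77 and 4.87 in EC-MP, and 5.98, 5.99 and 5.88 in CD157+CD200+, 5.43, 5.44 and 5.43 in CD157-CD200+ and 4.58, 4.59 and 4.93 in CD157-CD200-. Within each subset the Ier3 arrays were tight and no subsets overlapped. CD157+CD200+ was 1.25 ± 0.16 above CD157-CD200- (adjusted p = 0.000579) and CD157-CD200+ was 0.73 ± 0.16 above it (adjusted p = 0.0163; up to 0.0656 with 1 array left out). The EC-SP difference of 0.74 had adjusted p = 0.0517, 0.0456 with the replicate block and as low as 0.00807 over the alternatives. Ier2 and Ier5, nuclear immediate-early proteins, differed by -0.25 and 0.10 in EC-SP (adjusted p = 0.715 and 0.812) and by 0.97 and 0.69 in CD157+CD200+ over CD157-CD200- cells, with adjusted p = 0.0961 and 0.0799 and, with the block, 0.00539 and 0.022.

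Of the MAP kinase phosphatases Dusp6 was called higher in EC-SP and none was called between the subsets. Dusp1, a nuclear phosphatase of JNK, p38 and ERK whose promoter carries the full CRE above, had 6.93, 6.47 and 6.65 in EC-SP, against 7.31, 7.05 and 7.04 in EC-MP, and 7.85, 8.06 and 7.75 in CD157+CD200+, 7.94, 8.05 and 7.87 in CD157-CD200+ and 7.93, 7.92 and 7.98 in CD157-CD200-. EC-SP lay below EC-MP on all arrays with a difference of -0.45 (95% interval -0.96 to 0.06, adjusted p = 0.224), and the subsets overlapped, with a CD157+CD200+ difference of -0.06 (95% interval -0.42 to 0.30). Dusp6, the cytoplasmic ERK phosphatase, had 5.56, 5.67 and 5.86 in EC-SP and 4.32, 3.85 and 4.05 in EC-MP, 1.62 ± 0.23 higher (adjusted p = 0.00168). Its subset values of 4.84, 5.0 and 4.6 in CD157+CD200+, 4.71, 4.77 and 4.61 in CD157-CD200+ and 5.24, 5.04 and 5.08 in CD157-CD200- were highest in CD157-CD200-, and CD157+CD200+ differed from CD157-CD200- by -0.31 (adjusted p = 0.299). Dusp5, the nuclear ERK phosphatase, differed by -0.45 in EC-SP and -0.95 in CD157+CD200+ cells (adjusted p = 0.272 and 0.225), and the second was called with the block (adjusted p = 0.011).

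Among the genes of RNA decay and growth arrest, 3 of 6 were higher in EC-SP and 4 of 6 in CD157+CD200+ cells. Zfp36l1, a relative of ZFP36 that also destabilises AU-rich mRNAs, was higher by 1.85 ± 0.26 in EC-SP (adjusted p = 0.00166) and by 0.71 ± 0.20 in CD157+CD200+ over CD157-CD200- (adjusted p = 0.0405; up to 0.14 over the alternatives). Zfp36 itself ran from 6.41 to 7.55 over all arrays, with a CD157+CD200+ difference of 0.61 ± 0.18 (adjusted p = 0.0447; up to 0.158 with 1 array left out or another setting) and an EC-SP difference of 0.26 (adjusted p = 0.505). The growth arrest genes Gadd45a and Gadd45g, which bind stress kinases and PCNA, were higher in EC-SP by 1.4 ± 0.22 and 1.1 ± 0.22 (adjusted p = 0.00276 and 0.0102). In CD157+CD200+ cells Gadd45g was 0.72 ± 0.17 above CD157-CD200- (adjusted p = 0.0198; up to 0.0764), and Gadd45a differed by 0.41, with adjusted p = 0.576 and, with the block, 0.0254. Gadd45b differed by 0.74 and 0.28 (adjusted p = 0.0543 and 0.465), and the EC-SP difference was called with the block (adjusted p = 0.0264). Btg2, an antiproliferative partner of the deadenylase complex, differed by 0.02 in the first sort (95% interval -0.55 to 0.59) and was 1.07 ± 0.27 higher in CD157+CD200+ than in CD157-CD200- (adjusted p = 0.0274; up to 0.0973).

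Trib1, a pseudokinase that steers C/EBP proteins to degradation, had its subset means in the same order as Myc. Trib1 had values of 4.67, 4.62 and 4.46 on the EC-SP arrays, against 2.0, 1.68 and 1.32 on the EC-MP arrays, 2.91 ± 0.24 higher (adjusted p = 0.000141), or 7.53-fold. The subsets had 4.39, 4.44 and 4.64 in CD157+CD200+, 2.62, 2.85 and 2.95 in CD157-CD200+ and 3.31, 3.32 and 3.95 in CD157-CD200-, with CD157-CD200+ lowest on every slide. Trib1 was 1.68 ± 0.21 higher in CD157+CD200+ than in CD157-CD200+ (adjusted p = 0.00649) and 0.96 ± 0.21 higher than in CD157-CD200- (adjusted p = 0.0135; 0.0562 without CD157-CD200- replicate 1). A second probe gave 2.77, 1.61 and 0.92 for these 3 differences. Sgk1, a kinase induced by serum and glucocorticoids, was lower in CD157+CD200+ cells: it had 4.16, 4.26 and 4.1 in CD157+CD200+, 4.0, 4.03 and 4.08 in CD157-CD200+ and 5.1, 4.73 and 5.2 in CD157-CD200-, so CD157+CD200+ fell below CD157-CD200- (difference -0.84 ± 0.17, adjusted p = 0.00928) and CD157-CD200+ differed from it by -0.97 ± 0.17 (adjusted p = 0.00485). Both CD200-positive subsets lay below every CD157-CD200- array. In the first sort Sgk1 had 5.1, 4.95 and 5.4 in EC-SP, against 4.74, 4.5 and 4.19 in EC-MP, higher on every array by a mean of 0.67 that was not called (adjusted p = 0.0949). Arc, a cytoskeletal gene best known from neurons, was higher in EC-SP by 2.19 ± 0.35 (adjusted p = 0.00337) and differed by 0.45 in CD157+CD200+ cells (adjusted p = 0.413). The small GTPase gene Rhob differed by 0.81 and 0.20 (adjusted p = 0.0566 and 0.727), and the EC-SP difference was called with the block (adjusted p = 0.0275).

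Hspa1a, the inducible HSP70 that rises on proteotoxic stress, was called in none of the 4 comparisons. Between CD157+CD200+ and CD157-CD200- cells it was called with the block, with normexp and with quantile normalization. Its values were 4.16, 3.77 and 4.58 in EC-SP and 4.15, 4.19 and 4.48 in EC-MP, which overlapped (difference -0.10, 95% interval -0.69 to 0.49, adjusted p = 0.858). In the subsets they were 4.6, 4.52 and 4.58 in CD157+CD200+, 4.86, 4.96 and 4.89 in CD157-CD200+ and 4.91, 4.9 and 5.35 in CD157-CD200-. All CD157+CD200+ arrays lay below both other subsets, with a difference of -0.49 against CD157-CD200- (95% interval -0.88 to -0.10), with adjusted p = 0.099, 0.0342 with the block and as low as 0.0219 over the alternatives.

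**Figure D3:**
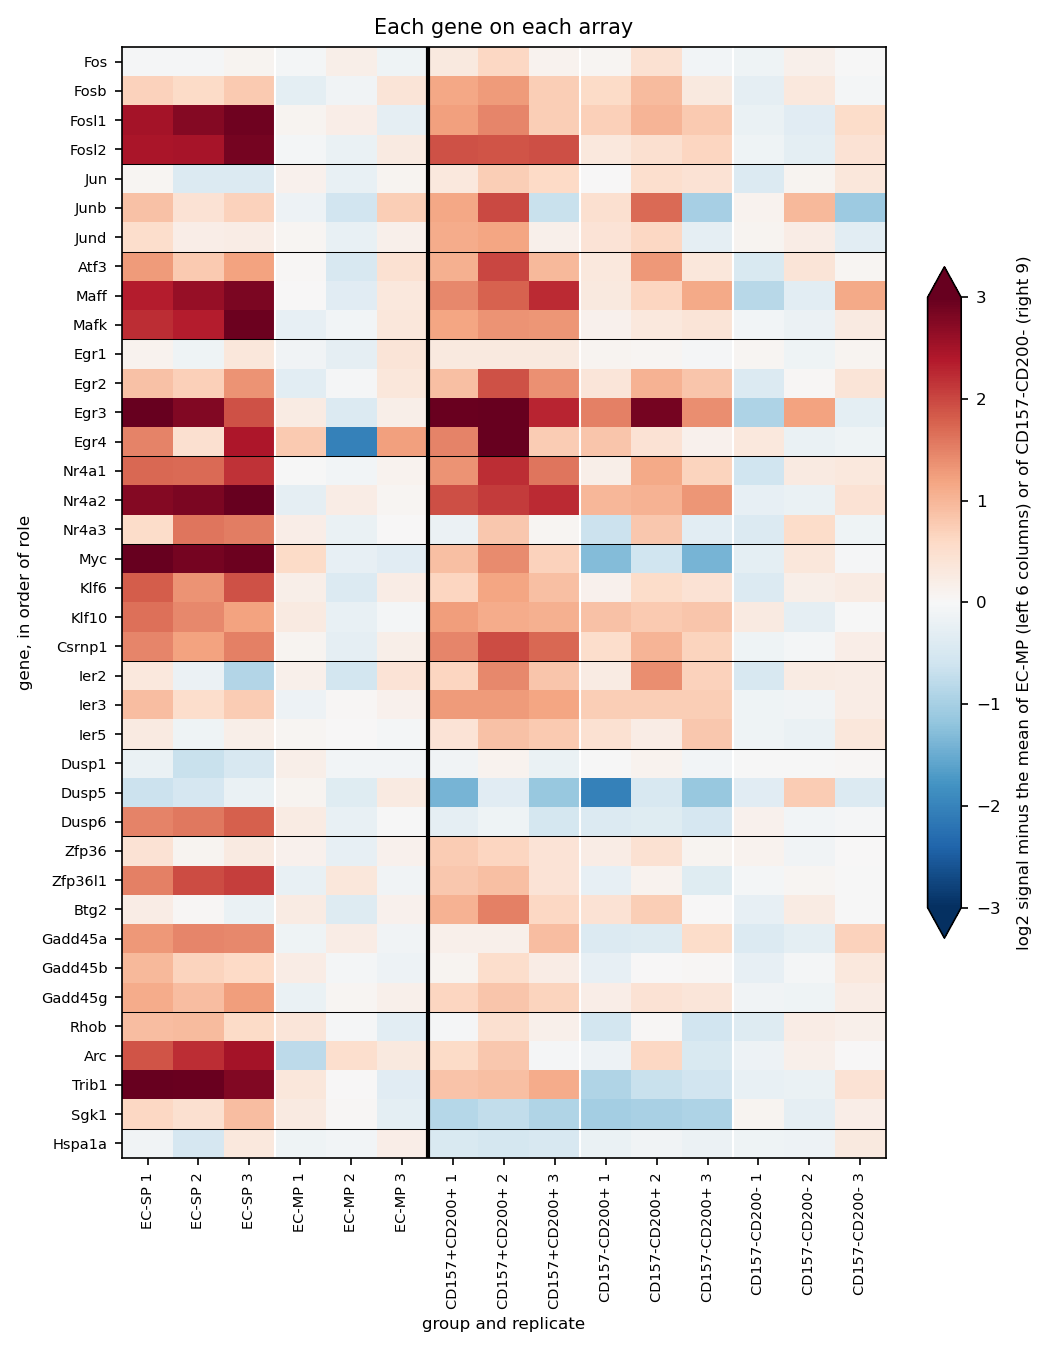
Each row is a gene, in order of role, and each column an array; colour is the log2 signal minus the mean of EC-MP (left 6 columns) or of CD157-CD200- (right 9 columns), with red above and blue below. The EC-SP columns are red for FOSL, small MAF, EGR3, NR4A, MYC and TRIB1 genes and pale for Fos, Jun, Egr1 and Dusp1, and the third Junb array of every subset is lower than the others.

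The intermediate subset, CD157-CD200+, mostly lay between the other two. The mean was highest in CD157+CD200+ and lowest in CD157-CD200- for 26 of 38 genes, an order that 23.8% of 23694 features with complete values had. For another 7 genes (Nr4a3, Myc, Zfp36l1, Gadd45a, Gadd45b, Rhob and Trib1) CD157+CD200+ was highest and CD157-CD200+ lowest, an order of 9.75% of features. Against CD157-CD200+ cells, 4 genes were higher in CD157+CD200+ (Myc, Trib1, Fosl2 and Mafk) and none lower, where 1.05% of all features were called, 0.802% as higher. Without CD157+CD200+ replicate 1 or 2, or CD157-CD200+ replicate 1 or 2, 2 of the 38 were called. These fits called 104 to 132 features, against 248 with all arrays. The median difference was 0.48, beside -0.01 for all features, and the arrays did not overlap in 16 genes that were higher and 1 that was lower (7.35 and 7.26% of features). CD157-CD200+ cells in turn were higher than CD157-CD200- cells in Nr4a2, Klf10, Csrnp1 and Ier3 and lower in Myc and Sgk1, where 11.8% of features were called, 6.31% as higher and 5.54% as lower, with a median of 0.33 beside 0.02. The genes called here were 15.8% of the 38, near the share of all features. The arrays did not overlap in 6 genes that were higher and 5 that were lower, beside 13.3 and 12.1% of all features. Of the 38, 2 were called without CD157-CD200+ replicate 1 and 3 without CD157-CD200+ replicate 3. In these fits 2005 and 2207 features were called, against 2807 with all arrays. The replicate block raised these counts to 8 genes higher (3.06% of features in either direction, 2.04% as higher) for CD157+CD200+ against CD157-CD200+ and to 10 higher and 5 lower (22.3%) for CD157-CD200+ against CD157-CD200-. The 3 subset comparisons share their arrays. In limma's F test for any difference among the subsets 15 of 38 genes were called (13.9% of features) and 27 with the block (26.8%). Without CD157+CD200+ replicate 2 the F test called 9 genes, and the share of all features was not counted there.

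Slides and subsets shared the variance of the immediate-early genes unequally. A slide here is also a replicate number and, among the subsets, a revision of the array design. Slide, replicate sample and revision therefore cannot be told apart. Over the 9 subset arrays a median of 72.4% of a gene's variance lay between subsets and 21.0% between slides, against 31.1% and 38.6% over all features. Exceptions were Fos, Junb, Nr4a3, Dusp1, Dusp5, Gadd45a, Rhob and Arc, the 8 of 38 genes whose slide means spread further than their subset means. Over all features this was so for 12773 of 23694. For Junb 88.6% of the variance lay between slides, with slide means of 3.11, 4.08 and 1.61.

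Whether the 2 sorts moved a gene by different amounts was tested as the difference between the EC-SP minus EC-MP and the CD157+CD200+ minus CD157-CD200- differences, over all 15 arrays. It was called for 6 of 38 genes, all larger in the first sort, where 5.05% of 25060 features were called and 2.08% in that direction. They were Dusp6 at 1.93 ± 0.26 (SE; adjusted p = 0.000441), Trib1 at 1.95 ± 0.32 (0.00203), Sgk1 at 1.51 ± 0.28 (0.00567), Myc at 1.97 ± 0.41 (0.0126), Fosl1 at 1.58 ± 0.37 (0.0234) and Mafk at 1.22 ± 0.32 (0.0426). The calls for Fosl1 and Mafk were lost under several alternatives, single arrays left out among them, with adjusted p-values up to 0.0619 and 0.1. Fosl1 was well above background on 1 of 3 CD157-CD200- arrays, so its subset difference, which was 0.23 with normexp, is uncertain in size. Of the genes called in 1 sort only, Dusp6 and Sgk1 thus differed between the sorts, whereas Arc (0.0604), Gadd45a (0.305), Nr4a3 (0.442), Btg2 (0.159), Fosb (0.717), Ier3 (0.322) and Zfp36 (0.631) were not shown to differ by their adjusted p-values. With the block 13 genes were called (12.7% of features), among them Arc, Gadd45a, Zfp36l1 and, larger in the second sort, Jun and Btg2.

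**Figure D4:**
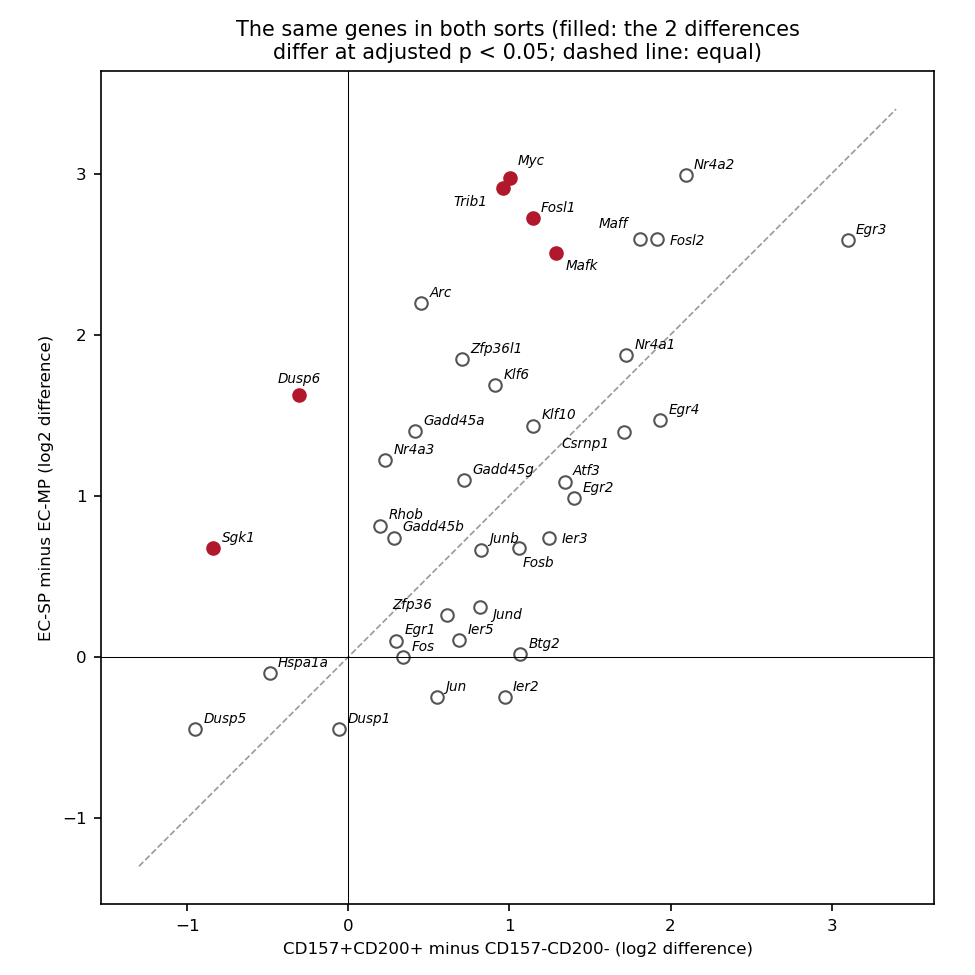
For each gene the EC-SP minus EC-MP log2 difference (y axis) is plotted against the CD157+CD200+ minus CD157-CD200- difference (x axis), with equality dashed and the 6 genes whose 2 differences differed at an adjusted p under 0.05 filled. Egr3, Nr4a1, Nr4a2, Fosl2 and Maff stand high in both sorts, and Sgk1 and Dusp6 lie above 0 in the first sort and below 0 in the second.

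Neighbouring parts of the response were described from lists of genes outside the 39, whose counts stand beside 9.11% of all features called higher and 7.44% called lower in EC-SP, and 8.09% and 7.11% in CD157+CD200+ against CD157-CD200- cells. Of 34 other primary response genes 17 were higher and 1 lower in EC-SP, and 16 were higher and 3 lower in CD157+CD200+ than in CD157-CD200- cells. Dusp2, a nuclear MAP kinase phosphatase, was higher by 4.0 ± 0.25 and 4.39 ± 0.20 (adjusted p = 3.21e-05 and 6.47e-07). Errfi1, a brake on EGF receptor signalling, was 3.31 ± 0.22 higher in EC-SP (adjusted p = 5.31e-05), and Ccn2, a matricellular protein gene, was 2.86 ± 0.21 higher in CD157+CD200+ than in CD157-CD200- cells (adjusted p = 1.42e-05). Of 26 early NF-kB targets 16 rose and 1 fell in EC-SP, and 14 rose and 3 fell in CD157+CD200+ cells. Il6, the cytokine, averaged 3.42 in CD157+CD200+ cells and was not well above background on any CD157-CD200- array, a difference of at least 158-fold (adjusted p = 1.47e-07), and the adhesion receptor gene Sele was 3.41 ± 0.25 and 3.87 ± 0.35 higher (adjusted p = 7.87e-05 and 5.61e-05). Of 19 heat shock and chaperone genes 7 rose in EC-SP and 5 in CD157+CD200+ cells and none fell. Hspb1, a small heat shock protein gene, was 2.09 ± 0.26 and 2.58 ± 0.23 higher (adjusted p = 0.000963 and 4.25e-05). Hspa2, an HSP70 relative, was 1.86 ± 0.39 higher in EC-SP (adjusted p = 0.0125), and Hspb8 2.66 ± 0.28 higher in CD157+CD200+ cells (adjusted p = 0.000147). Of 18 genes of the endoplasmic reticulum and integrated stress response 7 rose in EC-SP, and 4 rose and 1 fell in CD157+CD200+ cells, with Nupr1, a stress-induced chromatin protein gene, at 3.66 ± 0.44 and 3.39 ± 0.23 (adjusted p = 0.000774 and 9.03e-06). Ddit4, an inhibitor of mTORC1, was higher by 1.78 ± 0.21 and 1.06 ± 0.16 (adjusted p = 0.000676 and 0.0015). Of 30 upstream kinases and factors 5 rose and none fell in EC-SP, beside 16.6% of all features called there, 9.11% as higher. In CD157+CD200+ cells 2 rose and 1 fell. Those called in EC-SP included the MAP kinase kinase gene Map2k3 at 1.87 ± 0.26 and the ribosomal S6 kinase gene Rps6ka3 at 1.2 ± 0.27 (adjusted p = 0.00162 and 0.0156). Those called in CD157+CD200+ against CD157-CD200- cells included the SRF cofactor gene Mrtfb at 2.07 ± 0.20 and Hras at -1.1 ± 0.22 (adjusted p = 7.29e-05 and 0.00822). Of 13 other bZIP partners 2 rose and 1 fell in EC-SP and 1 fell in CD157+CD200+ cells, the last being Maf, a large MAF factor, at -3.37 ± 0.28 and -3.70 ± 0.25 (adjusted p = 0.00014 and 6.98e-06). Bach1, a heme-sensing repressor that pairs with small MAF proteins, was 1.29 ± 0.26 higher in EC-SP (adjusted p = 0.0107). The median differences of the 6 lists were 1.06, 1.2, 0.72, 0.70, -0.01 and 0.35 in EC-SP, in this order, beside -0.01 for all features, and 0.72, 0.92, 0.13, 0.02, 0.04 and 0.22 in CD157+CD200+ cells, beside 0.01.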

How the data were processed

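Signal intensity was read from 15 deposited scanner files; per the file headers the authors extracted it with Agilent Feature Extraction 10.10.1.1 (EC-SP and EC-MP) and 11.5.1.1 (subsets), background-subtracted in the processed signal. Per the labels, RNA was amplified and Cy3-labelled. The authors' deposited series table holds intensity that equals the scanner value times 1 constant per array, uncentred, and no source names what the constant rests on. Here flagged spots were dropped, log2 signal was set against each array's 75th percentile (157 to 297), and probes well above background on all 3 arrays of a group were tested with limma 3.58.1 (R 4.3.3) in a fit of 6 arrays (first sort) and another of 9 (subsets); the difference between sorts used all 15. The brightest probe stood for each gene. Benjamini-Hochberg adjustment ran over all features. The fits were also run on simulated data, in which the noise of each array was independent. The correlation between arrays of the same slide, given below, was therefore not part of that simulation. The number of arrays limits the precision.

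Per the file headers each of 3 slides per set held 1 array of every group. Slide and replicate number coincide, so the replicate block is also the slide block. Among the subsets each slide also had its own revision of the array design. Deviations from group means correlated at 0.27 to 0.63 between arrays of the same number and at -0.49 to 0.03 between different numbers. Deviations within a group cancel out, which pushes the second range to negative values when the first is positive. The 2 sorts were scanned in 2 sets, and set and sort cannot be told apart in the difference between them. The members and all gene lists were chosen with earlier results of these data known. Values per array are given for Fos, Jun, Egr1, Hspa1a and the 8 called genes of largest difference in each pairwise comparison, and for Junb, Dusp1 and Dusp6, chosen after their values were seen. Genes of other lists are, for EC-SP against EC-MP and CD157+CD200+ against CD157-CD200-, up to 2 called genes per list with the lowest adjusted p. Promoters and gene spans are from RefSeq GRCm38.p6. Alternatives were normexp background correction on median signals (chosen after seeing the data, since mean signals were not used here), quantile normalization, the series table, other filters, the block, outlier spots kept, 1 fit of all arrays, other probes of a gene, and each replicate left out.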

Additional observations from a re-analysis of the deposited data

How the results depend on the processing

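Of the calls on single genes, 16 of 20 for EC-SP minus EC-MP, 9 of 21 for CD157+CD200+ minus CD157-CD200-, 2 of 4 for CD157+CD200+ minus CD157-CD200+, 2 of 6 for CD157-CD200+ minus CD157-CD200- and 4 of 6 for the difference between the sorts held under all alternatives run. With the replicate block, which is also the slide block, the genes called numbered 8 for CD157+CD200+ minus CD157-CD200+ (4 without it), 15 for CD157-CD200+ minus CD157-CD200- (6 without it), 27 in the F test (15) and 13 for the difference between the sorts (6), and the features called numbered 6937 (3601) for CD157+CD200+ minus CD157-CD200-, 726 (248) for CD157+CD200+ minus CD157-CD200+ and 5282 (2807) for CD157-CD200+ minus CD157-CD200-. Without the filter on dim probes, which raises the number tested, 2279 features were called for EC-SP minus EC-MP (3968 with it), and 12 genes (21) for CD157+CD200+ minus CD157-CD200- and 9 (15) in the F test. Normexp gave 7 genes for CD157+CD200+ minus CD157-CD200+, and probes above background on every array gave 156 features. Leaving out each replicate gave 17 to 20 genes for EC-SP minus EC-MP, 9 to 21 for CD157+CD200+ minus CD157-CD200-, 2 to 5 for CD157+CD200+ minus CD157-CD200+, 2 to 6 for CD157-CD200+ minus CD157-CD200-, 9 to 16 in the F test and 4 to 7 for the difference between the sorts, and 104 to 261 features for CD157+CD200+ minus CD157-CD200+. In those fits 2701 to 3329 features were called for EC-SP minus EC-MP (3968 with all arrays). For CD157+CD200+ minus CD157-CD200- the features called numbered 2664 to 3414 (3601), and for CD157-CD200+ minus CD157-CD200- 2005 to 2778 (2807). No called value changed sign. Uncalled values did: for EC-SP minus EC-MP, Fos was -0.26 with quantile normalization, -0.16 in the series table and -0.0088 with outlier spots kept, Btg2 -0.0904 and -0.14 with quantile normalization and in the series table, and Egr1 -0.0596 and Ier5 -0.056 in the series table. For CD157-CD200+ minus CD157-CD200-, Dusp1 was -0.018 and Gadd45b 0.0071 with quantile normalization and Arc -0.012 with normexp. With 1 replicate left out, the ranges for EC-SP minus EC-MP that crossed 0 were Fos -0.059 to 0.088, Egr1 -0.037 to 0.30, Ier2 -0.53 to 0.072, Btg2 -0.17 to 0.14 and Hspa1a -0.31 to 0.10. With 1 replicate left out, the ranges for CD157+CD200+ minus CD157-CD200- that crossed 0 were Nr4a3 -0.058 to 0.50 and Dusp1 -0.14 to 0.0071. With 1 replicate left out, the ranges for CD157+CD200+ minus CD157-CD200+ that crossed 0 were Junb -0.26 to 1.18, Nr4a3 -0.018 to 0.71, Ier2 -0.077 to 0.50 and Dusp5 -0.14 to 0.63. With 1 replicate left out, the ranges for CD157-CD200+ minus CD157-CD200- that crossed 0 were Fos -0.0043 to 0.27, Junb -0.26 to 1.08, Egr1 -0.022 to 0.078, Nr4a3 -0.48 to 0.25, Dusp1 -0.0398 to 0.05, Gadd45a -0.40 to 0.26, Gadd45b -0.18 to 0.089 and Arc -0.30 to 0.23. The cause of these changes was not tested, beyond the fewer samples of the fits that leave one out. In the series table the median of all features was -0.17 for EC-SP minus EC-MP and 39.8% of calls were higher, against 55.0% here, with a median of 0.93 for the immediate-early genes; for the difference between the sorts 29.0% were higher there and 54.9% with normexp, against 41.1%. Dim signal limits Fosl1 and Egr4, which were not well above background on every array.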
